A study of Mus musculus with 16 samples.

Results

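Olfactory receptor (Olfr) genes were examined in ATAC-seq peak lists of 16 pancreatic islet samples, a tissue outside the nose in which this gene family is generally held to be closed. The peaks of the 16 lists on chromosomes 1 to 19 were merged wherever they overlapped or touched, which gave 347712 regions. A region was kept when it overlapped the body of a GENCODE gene whose symbol starts with Olfr and lay over 3 kb from the transcription start site of any other gene. Of 1104 regions that overlapped an Olfr gene body, 994 passed, and they lay in 622 of the 1399 autosomal Olfr genes. These genes comprised 1128 protein-coding genes and 271 pseudogenes, and the gene bodies had a median length of 5.50 kb.

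The islets came from 8 inbred mouse strains, with 1 female and 1 male of each, and each sample pooled 50 islets of average size. The classical strains were 129S1_SvImJ (129), A_J (AJ), C57BL/6J (B6), NOD_ShiLtJ (NOD) and NZO_HlLtJ (NZO), and the wild-derived strains were CAST_EiJ (CAST), PWK_PhJ (PWK) and WSB_EiJ (WSB). No treatment or age was given in the labels. Strain was the replicate unit of the tests, because each strain had only 1 sample of each sex. The limma test of a strain effect was the exception, with the 2 samples of a strain as its replicates. Those 2 samples also differed in sex.

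Olfr genes encode G-protein-coupled receptors that bind odorants. They stand in long tandem clusters, usually with the whole coding sequence in 1 exon, and each olfactory sensory neuron transcribes a single allele of a single receptor gene. In other cells the clusters are known as compact heterochromatin. A few Olfr genes, Olfr15, Olfr16, Olfr78, Olfr109, Olfr544, Olfr558 and Olfr1393 among them, have been described outside the nose, and their regions are given one by one. In ATAC-seq a transposase cuts open DNA, so a called peak marks accessible chromatin. In a bulk sample a weakly open site in all cells and an open site in few cells cannot be told apart.

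The intron regions of Olfr455 and of the pseudogene Olfr1398-ps1 were called in all 16 samples. From each, 150 bases are given with the letters of an AP-1 motif (TGANTCA) in capitals. Each of these windows occurred as a whole only 1 time in the genome. The coding-sequence region of Olfr15 was also called in all 16 samples, and it has no capitals because none of the searched motifs occurred in the window. The regions of Olfr544 and Olfr243 overlap near-copies elsewhere, and in these the capitals mark bases covered by 31-base words that occur more than once in the genome. All are from the plus strand of mm10, outside annotated UTRs, at chr6:42545375-42545524 (Olfr455), chr3:52242676-52242825 (Olfr1398-ps1), chr16:3839619-3839768 (Olfr15), chr7:102484965-102485114 (Olfr544) and chr7:103716596-103716745 (Olfr243).
Olfr455: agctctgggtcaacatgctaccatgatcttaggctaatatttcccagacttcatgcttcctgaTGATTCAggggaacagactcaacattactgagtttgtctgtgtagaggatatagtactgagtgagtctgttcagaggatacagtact
Olfr1398-ps1: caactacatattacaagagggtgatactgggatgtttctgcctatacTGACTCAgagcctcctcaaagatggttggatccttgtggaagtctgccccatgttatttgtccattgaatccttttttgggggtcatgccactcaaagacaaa
Olfr15: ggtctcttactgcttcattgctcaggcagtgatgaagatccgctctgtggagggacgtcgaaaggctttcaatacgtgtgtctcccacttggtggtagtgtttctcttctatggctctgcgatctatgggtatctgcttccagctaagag
Olfr544: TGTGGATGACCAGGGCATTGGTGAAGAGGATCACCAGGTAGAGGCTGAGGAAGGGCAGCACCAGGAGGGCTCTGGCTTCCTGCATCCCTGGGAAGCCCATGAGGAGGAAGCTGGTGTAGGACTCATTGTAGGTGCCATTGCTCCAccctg
Olfr243: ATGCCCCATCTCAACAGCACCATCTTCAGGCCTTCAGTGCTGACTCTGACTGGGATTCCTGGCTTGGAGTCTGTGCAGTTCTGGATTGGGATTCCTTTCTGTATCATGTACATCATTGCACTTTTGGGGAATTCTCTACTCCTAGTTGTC
The 150 bases of Olfr243 occurred 2 times in the genome, whereas 145 of the 150 bases shown for Olfr544 lay in repeated words.

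The identity of the tissue was checked at promoters, where a peak within 3 kb of a start site was counted. Unlike the rule for Olfr regions, peaks near the start site of another gene were not left out. Of 11 autosomal islet markers, 10 had such a peak in all 16 samples, with Pax6 highest (median scaled signal 8.14), and only the somatostatin gene Sst, called in 1 sample, did not. Scaled signal is the summit signal of a peak divided by the median summit signal of the 40940 regions called in all 16 samples of that list, so that 1 is a typical shared region. Among 8 olfactory sensory neuron markers, Gng13, Rtp1 and Stoml3 were listed in no sample. Omp was listed in 5 samples at up to 0.327, and Cnga4 in 5 samples at up to 27.7. Slc17a6 was listed in all 16 at a median of 0.394, Ano2 in 15 at 0.382 and Rtp2 in 14 at 0.370. No acinar, endothelial or leukocyte marker had a peak in all 16 samples (0 of 5, 0 of 3 and 0 of 4), and 1 of 3 duct markers, Muc1, did. Some were listed in most samples at low signal, namely Ptprc in 15 (median 0.217), Ptf1a in 14 (0.380), and Cdh5 and Kdr in 13 each (0.248 and 0.250), and the part of such cells in the results was not tested. The lists held from 71121 to 160818 called regions, the shortest in the AJ male and the longest in the WSB female. The lists give no read totals, and depth was not used here. The lists of the PWK male and the NZO male held the largest shares of regions called in no other sample (28.0% and 25.1%, against 1.85% to 12.3% in the others).

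Olfr gene bodies were less accessible than those of other protein-coding genes in every sample. Over the bases that were themselves over 3 kb from other start sites (7.32 Mb), peaks covered 0.246% of Olfr gene bodies in the 129 female, the lowest sample, and 0.866% in the PWK male, the highest. In the bodies of 19679 other protein-coding genes (912 Mb) they covered 1.51% in the AJ male and 4.43% in the WSB female, the lowest and highest samples, so the 2 ranges did not overlap. The means over 8 strains were 0.454% ± 0.174 (SD, n = 8) for Olfr and 2.71% ± 0.825 for other genes. The log2 ratio was -2.63 ± 0.34 (SD, n = 8 strains), which is 6.20-fold lower coverage, and it was below 0 in 8 of 8 strains (exact two-sided sign-flip test, p = 0.00781, the smallest that 8 strains allow).

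Other gene families that islets are not known for were nearer to Olfr. Vomeronasal receptor genes (Vmn1r and Vmn2r), which detect pheromones and also lie in clusters, had 0.694% ± 0.346 of their bases in peaks (SD, n = 8 strains, 329 genes). Olfr was 1.46-fold lower than these, in 6 of 8 strains (exact sign-flip p = 0.0391). Taste and trace-amine receptors (Tas2r and Taar, 56 genes) stood at 0.985% ± 0.511 (SD, n = 8) and hair keratin-associated genes (Krtap, 58 genes) at 1.33% ± 0.659, over only 0.0519 and 0.0453 Mb, and Olfr was lower in 8 and 7 of 8 strains (exact sign-flip p = 0.00781 and 0.0156). Zinc-finger genes (Zfp), which also stand in clusters but are widely expressed, stood at 3.96% ± 1.02 (n = 8), 9.12-fold above Olfr. The plot of bases by family shows the 16 values of each.

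**Figure D1:**
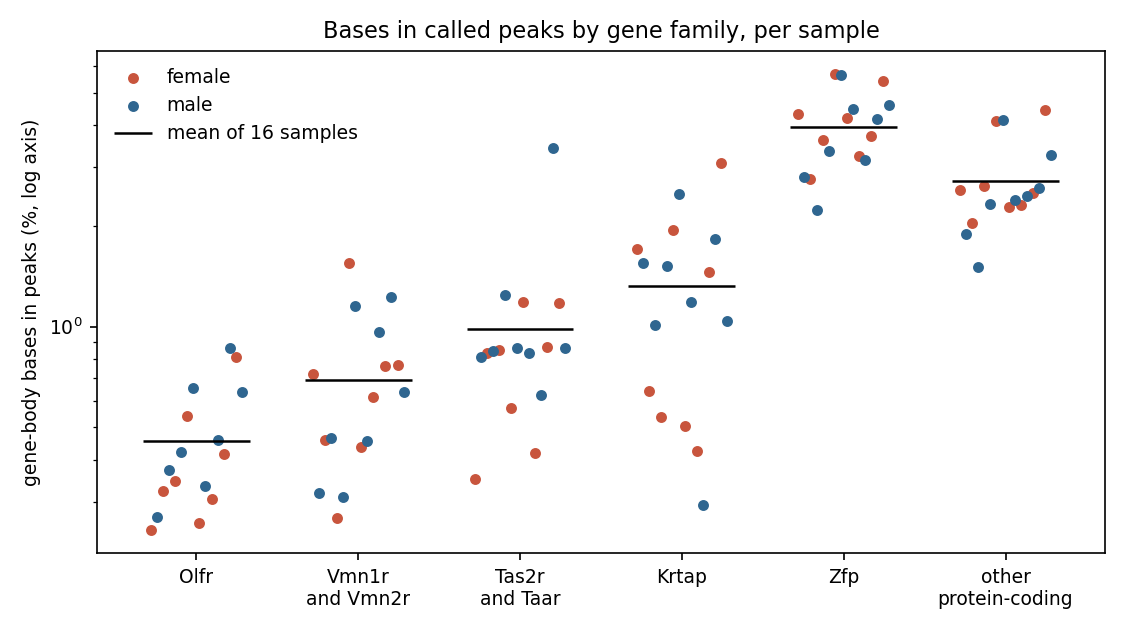
Percent of gene-body bases in called peaks (log axis) in each of 16 samples (females and males as coloured points, bar at the mean) for 6 gene families. Every Olfr point lies at or below 0.866%, and every point of other protein-coding genes lies at or above 1.51%.

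Start sites showed the same order more sharply. A peak lay within 500 bases of the start site of 1.36% of Olfr genes in the 129 and NOD females, the lowest samples, and of 4.93% in the PWK male, the highest. For other protein-coding genes the share ran from 53.0% to 67.7%. The Olfr side of this comparison was all 1399 genes, pseudogenes included. The means over strains were 2.64% ± 0.932 for Olfr and 62.0% ± 3.90 for the others (SD, n = 8). The difference was -59.3 ± 3.44 percentage points and was negative in 8 of 8 strains (exact sign-flip p = 0.00781).

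Where an Olfr region was called, it was mostly called once. Of 994 regions, 689 (69.3%) were called in 1 sample only, whereas 46.4% of all autosomal regions and 40.3% of 151293 regions in other gene bodies chosen by the same rule were. In all 16 samples 21 were called (2.11%), against 11.8% of all regions and 14.4% of those in other gene bodies. In 12 or more samples 42 were called (4.23%), against 19.2% of all regions. The vomeronasal receptor genes were like Olfr in this. Of 807 Vmn1r and Vmn2r regions chosen by the same rule, 491 were called in 1 sample only and 8 in all 16. Among peaks above the median deposited significance of their list, 39 of 114 Olfr regions were called in 1 sample and 12 in all 16. Regions called once were thus no longer the majority there. These shares and counts describe the lists, which differ in length, and carry no test.

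**Figure D2:**
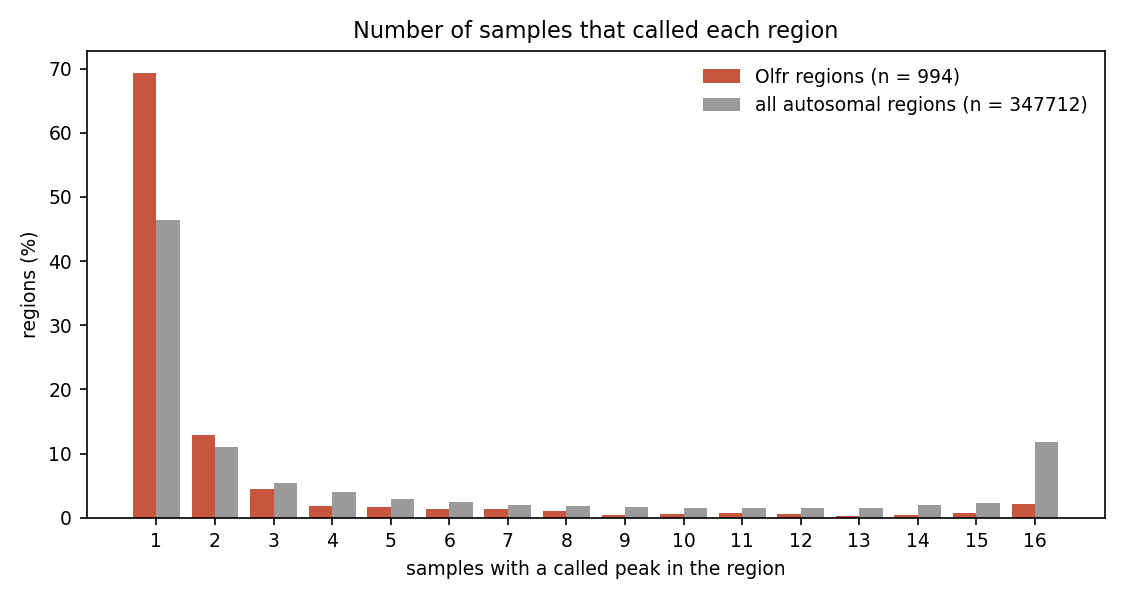
Percent of regions (bars) by the number of samples that called them, for 994 Olfr regions and 347712 autosomal regions. The first pair of bars is 69.3% for Olfr and 46.4% for all regions, and the last pair is 2.11% and 11.8%.

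Olfr regions were also weak and narrow. Within a list the median summit signal, as log2(signal + 1), was 4.097 ± 0.379 for Olfr regions and 4.905 ± 0.363 for regions in other gene bodies (SD, n = 8 strains). The difference was -0.81 ± 0.10 on the log2 scale, negative in 8 of 8 strains (exact sign-flip p = 0.00781). The median width of the peaks was 200 bases, the bin of the peak caller, in each of the 16 samples, against 246 ± 39.7 bases in other gene bodies. The difference of -46.0 ± 39.7 bases was negative in 7 of 8 strains and 0 in PWK (exact sign-flip p = 0.0156). The lowest sample median of other gene bodies was also 200 bases. A positive difference thus had little room, and the sign count and p mainly reflect how far the other medians rose above the bin.

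The regions called often differed from those called once. The 42 regions of 12 to 16 samples had a median width of 685 bases and those of 1 sample 200 bases. In the lists of reproducible peaks that the study made per strain, at an irreproducible discovery rate (IDR) up to 0.05, 37 of the 42 overlapped a peak of at least 1 strain and 8 of all 8 strains, whereas none of the 689 did. Among all regions called in 12 to 16 samples 95.7% overlapped a peak of at least 1 strain and 32.8% of all 8, beside 88.1% and 19.0% of the 42, and none of those called in 1 sample did. The strain lists and the number of samples rest on the same libraries, so this is a description. By position, 18 of the 42 lay within 500 bases of a start site of their own gene, as did 279 of the 689 (42.9% and 40.5%). The centre was in coding sequence in 8, in a UTR in 13, in an intron in 13, in another exon in 2 and outside the gene body, on either side, in 6 of the 42. With Olfr genes left aside, the nearest start site of a protein-coding gene lay at a median of 49.9 kb from the 42 and 174 kb from the 689.

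The 3 kb rule decided some strong regions. Of 110 regions left out by it, 6 were called in all 16 samples and 64 in 1 sample. Of the 994 regions kept, 21 and 689 were, and of all autosomal regions 11.8% and 46.4% were. The strongest of the 6 left out, at chr7:102737711-102739585 over the 3' end of Olfr78, lay 2997 bases from the start of Gm24210. It had a scaled signal of 2.34 at the lowest, 5.92 at the median and 12.3 at the highest. Its median and highest values were above those of each of the 994 regions. The nearest regions inside the rule, in Olfr68, Olfr1303 and Olfr325, lay 3006, 3017 and 3030 bases from another start site and were called in 3, 1 and 1 samples.

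The 5 regions with the highest mean scaled signal were called in all 16 samples. Highest was a region of 4056 bases at chr14:51062532-51066587 that overlapped the end of Olfr750 with its centre outside the gene body, 4871 bases from the start site of the ribonuclease gene Rnase12. Its scaled signal was 2.58 at the lowest, 3.39 at the median and 4.81 at the highest of 16 samples, so every sample was above 1. Next was the region at chr16:3842849-3843768, in a UTR of Olfr15, with 1.71, 3.29 and 5.41. Its nearest protein-coding start site outside the Olfr family was that of Zfp174, at 3500 bases. The intron region of Olfr455 shown above (chr6:42544584-42546315) had 0.759, 1.89 and 3.76, and the region at the start of the pseudogene Olfr443-ps1 (chr6:43065874-43067680) had 1.11, 1.94 and 3.80. The pseudogene Olfr1542-ps1 (chr10:130092812-130093571, in an exon) followed with 1.23, 1.78 and 2.98. All 5 medians were above 1, the level of a typical shared region.

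Of the other regions called in all 16 samples, the exon region of Olfr1398-ps1 had 0.430, 1.22 and 2.56 as lowest, median and highest value, and its intron region (chr3:52242567-52242935) had 0.386, 0.608 and 0.966. The intron region of Olfr148 (chr9:39611810-39612437) had 0.468, 1.08 and 1.72. Olfr986 (chr9:40183045-40183728, intron) had 0.446, 0.971 and 1.69. The medians of these 4 regions thus lay on both sides of 1. Olfr132 (chr17:38133682-38135058) had 0.364, 0.886 and 1.55, and Olfr557 (chr7:102695204-102696106), at its own start site, had 0.565, 0.870 and 1.47. Olfr452 (chr6:42790097-42791069) had 0.436, 0.991 and 1.42, and 33.4% of its words had a copy in Olfr38. Olfr90 (chr17:37084618-37085167) was lower, with 0.307, 0.607 and 1.16. The remaining regions of the 21 lay in Olfr455, Olfr556, Olfr9, Olfr56, Olfr95 and Olfr96, with means between 0.366 and 0.531. Of the words of the Olfr9 region (chr10:128990049-128990399, coding sequence), 82.9% were repeated, all in Olfr763, whose own region was called in 14 samples.

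Among the Olfr genes described outside the nose, Olfr15 and Olfr78 held regions called in all samples and the others did not. Olfr15 held 4 regions. Besides the UTR region, the coding-sequence region (chr16:3839428-3839959, 453 bases from the start site) was called in 16 samples with 0.691, 1.51 and 2.06 as lowest, median and highest. Another region, at a start site (chr16:3830800-3830999), was called in 10 samples with a highest value of 0.516, and the fourth was called in 1 sample.

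Olfr78, which responds to short-chain fatty acids and lactate, overlaps Olfr560 on chromosome 7. A region in both genes (chr7:102752070-102752532, in a UTR) was called in 16 samples with 0.382, 0.700 and 1.45. A second in both (chr7:102757000-102757599, intron) was called in 13 samples, up to 0.639 in the B6 male, and was absent in both NOD samples and the PWK female. The remaining 2 regions of Olfr78 were called in 4 samples and 1 sample. No region of Olfr78 that passed the rule lay within 500 bases of its start sites.

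Olfr544, a receptor for azelaic acid, held 1 region, in its coding sequence (chr7:102484894-102485186), called in 11 samples. It was absent in both 129 samples, both AJ samples and the B6 female. In the others it ran from 0.193 in the WSB male to 0.750 in the PWK male. Of its 31-base words, 79.1% occurred again in the genome, all of them in the neighbouring gene Olfr545, which held a region called in 10 samples. No filter on mapping quality is stated, so some reads may have been placed in the wrong copy, which was not tested. The 150 bases shown above occurred as a whole only 1 time in the genome. Olfr16, Olfr109 and Olfr558 each held 1 region, called in 1 sample, at scaled signals of 0.182, 0.182 and 0.0714, and Olfr1393 held none.

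**Figure D3:**
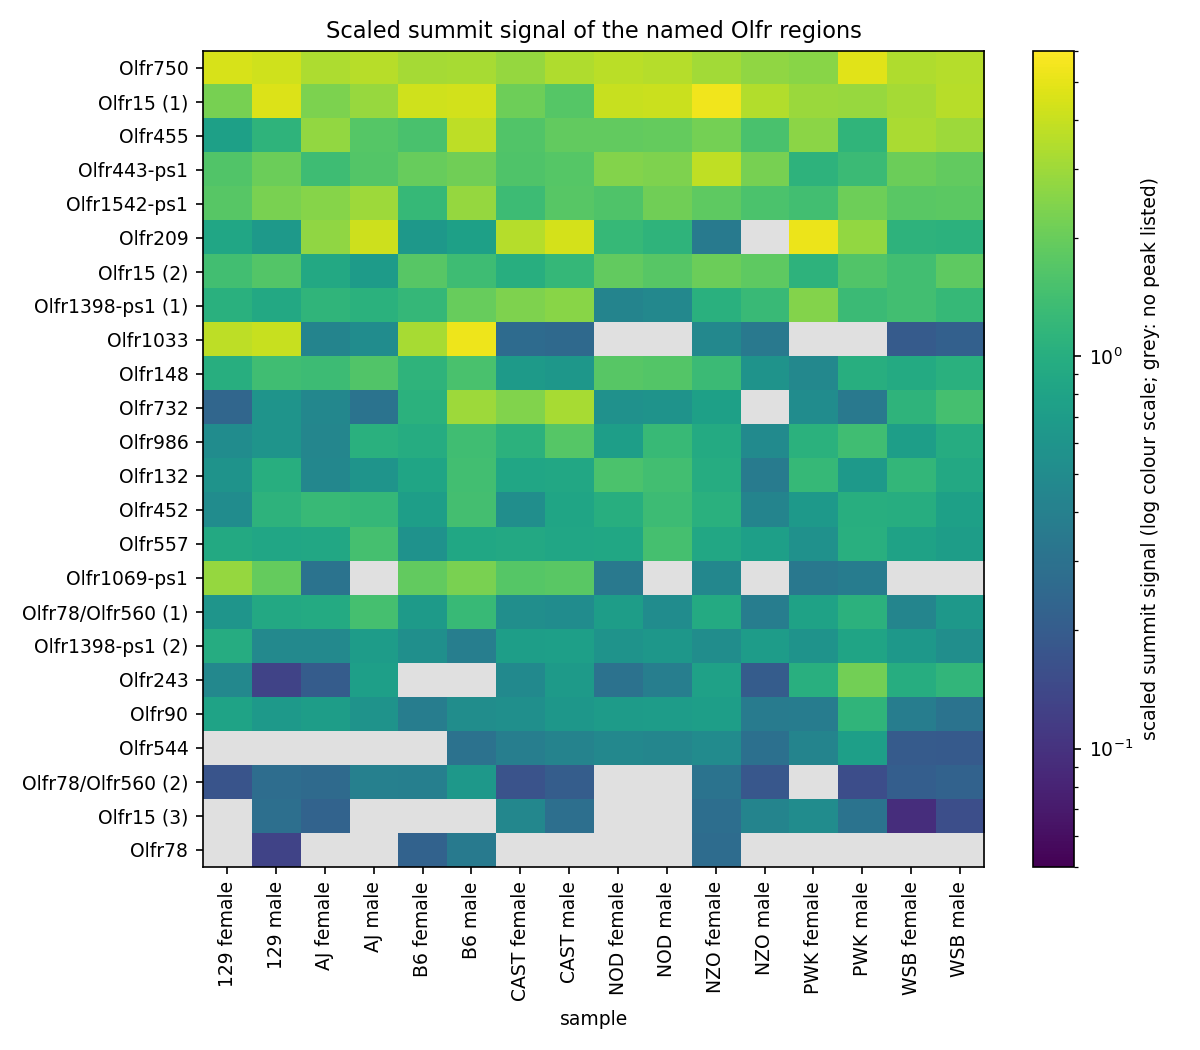
Scaled summit signal (log colour scale, grey where no peak was listed) of named Olfr regions (rows, ordered by their mean) in 16 samples (columns). Olfr750 and the first Olfr15 region are high in all columns, whereas Olfr1033 is high in 129 and B6 and grey in NOD and PWK.

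Some regions were high in some strains and low or absent in others. One was the region of 2398 bases at the start of Olfr1033 (chr2:86019581-86021978). Its scaled signal was 3.69 and 3.99 in the 129 female and male and 3.18 and 5.35 in the B6 female and male. It was at most 0.509 in AJ, CAST, NZO and WSB and was not listed in NOD or PWK. The strains were set apart here by these values themselves, so the gap carries no test. Of the 31-base words of this region, 88.3% occurred more than once in the genome, with a median of 42 copies, and 92.6% of its bases were soft-masked repeats. The part of these repeats in the pattern was not tested.

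The region of Olfr209 (chr16:59359810-59364076, 4267 bases, the widest) was high in AJ (2.72 and 4.16), CAST (3.55 and 4.37) and PWK (5.21 and 2.75, female and male). In the other strains it was between 0 and 1.23, and here too the grouping followed the values. Only 2.67% of its words were repeated. The pseudogene Olfr1069-ps1 (chr2:86464291-86465922) was high in 129 (2.81 and 1.94), B6 (1.89 and 2.28) and CAST (1.69 and 1.75) and at most 0.457 elsewhere, and 32.3% of its words were repeated, with a median of 667 copies. Olfr732 (chr14:50278580-50279470, in a UTR) was high in both CAST samples (2.43 and 3.23) and the B6 male (2.98). It was at 1.07 in the B6 female, so the B6 samples stood apart from each other, and at 1.13 and 1.47 in WSB.

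Other regions were missing in both samples of a strain. Olfr243 (chr7:103716400-103716909) was listed in neither B6 sample and highest in PWK (1.02 and 2.16) and WSB (0.981 and 1.16). Of its words 48.8% had a copy, all in Olfr628, whose region was called in 12 samples, up to 0.906 in the PWK male. The region at the start of Olfr658 (chr7:104647132-104647433) was listed in neither NOD sample and ran from 0.170 to 1.03 elsewhere. Olfr610 (chr7:103509588-103510720, intron) was missing in both B6 and both NOD samples and between 0.291 and 0.934 in the other 12. Olfr1045 was missing only in both NZO samples and Olfr676 only in both CAST and both NOD samples. Olfr545, Olfr628, Olfr38, Olfr658, Olfr610, Olfr1045 and Olfr676 were chosen after their values were seen. All strains were aligned to the mm10 reference, which is B6, and sequence differences of a strain from it were not analysed here.

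**Figure D4:**
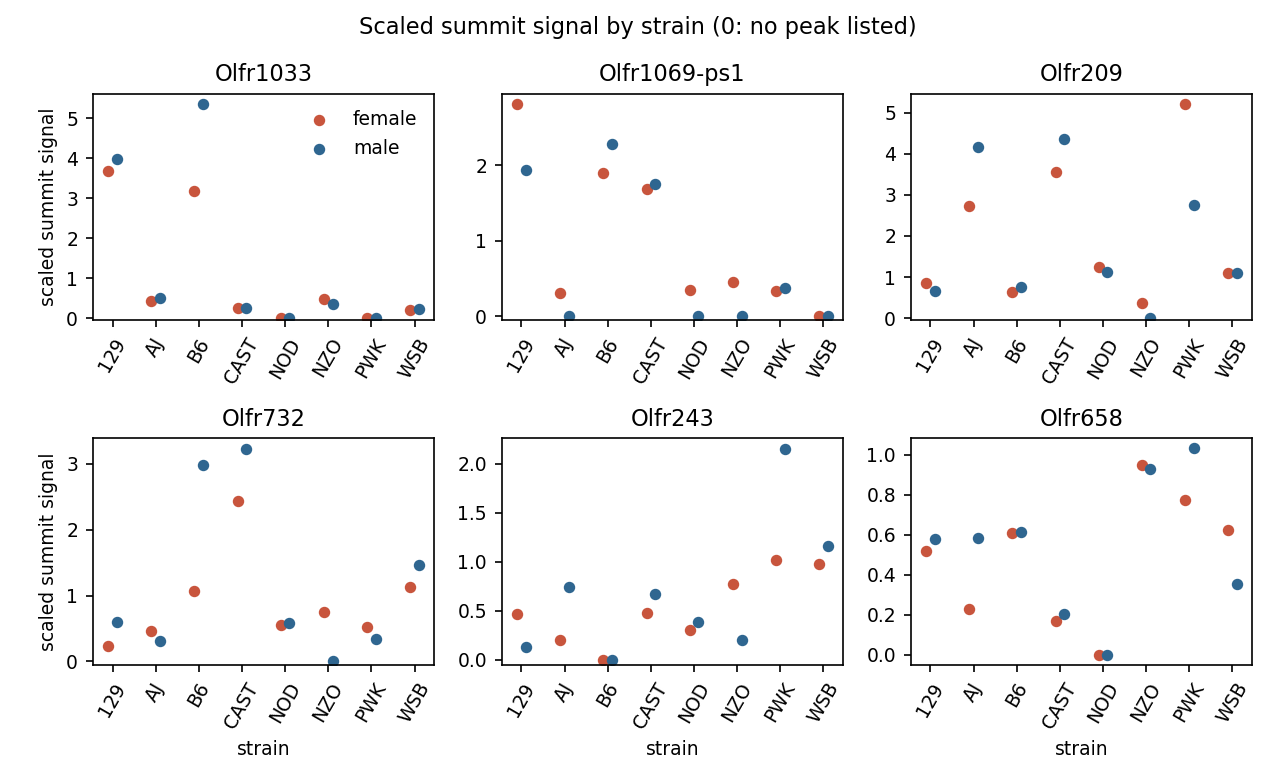
Scaled summit signal (0 where no peak was listed) of 6 Olfr regions by strain, with both sexes of each strain as points. Olfr1033 reaches 3.18 to 5.35 in 129 and B6 only, and Olfr658 is at 0 in both NOD samples.

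Across the 40940 regions called in all 16 samples, a strain effect on centred log2 summit signal was tested with limma (moderated F test, sex as covariate, Benjamini-Hochberg over all regions). Of the 21 Olfr regions 4 had an adjusted p under 0.05, which is 19.0% beside 35.7% of all regions. They were the exon region of Olfr1398-ps1 (chr3:52236800-52237510, limma adjusted p = 0.00254), Olfr95 (chr17:37210964-37211973, adjusted p = 0.0183), the coding-sequence region of Olfr15 (adjusted p = 0.0285) and Olfr443-ps1 (adjusted p = 0.0373). Olfr1398-ps1, whose nearest protein-coding start site outside the Olfr family was that of Foxo1 at 30826 bases, was lowest in NOD (0.430 and 0.463) and highest in CAST (2.37 and 2.56). Olfr95 was lowest in CAST (0.245 and 0.346) and highest in NOD (0.791 and 0.683). The Olfr15 region was lowest in AJ (0.892 and 0.691) and highest in NZO (2.06 and 1.84), and Olfr443-ps1 was lowest in PWK (1.11 and 1.31) and highest in NZO (3.80 and 2.25).

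The count depended on single samples. Without the NZO female it was 15 (60.1% of all regions called) and without the NZO male 10 (46.2%). Without the CAST female or the NOD female it was lower, and so was the share of all regions. Without the 129 female or the B6 male the count was higher while the share of all regions was lower, so the 2 did not always move together. With regions of 12 or more samples and 0 entered where no peak was listed, 9 of 42 Olfr regions had an adjusted p under 0.05, beside 18.1% of all regions. Among them were Olfr1033 (limma adjusted p = 6.24e-06), Olfr610 (1.21e-05), Olfr676 (2.67e-05), Olfr1045 (7.36e-05), Olfr658 (7.74e-05), Olfr243 (0.00668) and Olfr209 (0.0407). All of these but Olfr209 had the entered 0 in both samples of at least 1 strain. Their p-values thus restate in part which peaks were listed and do not measure the spread of signal alone.

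Wild-derived strains were compared with classical strains on the same values. No Olfr region had an adjusted p under 0.05 in limma on the 8 strain means (0.0342% of all regions did), and 4 of 21 had an unadjusted p under 0.05, beside 12.1% of all regions. The smallest was that of the intron region of Olfr148 (chr9:39611810-39612437), lower in wild-derived strains by -0.73 ± 0.26 (SE) on the log2 scale, with an adjusted p of 0.290.

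The share of Olfr regions in a list did not differ beyond the spread between strains. It was 1.46 ± 0.205 per 1000 called regions in wild-derived strains (SD, n = 3) and 1.22 ± 0.228 in classical strains (SD, n = 5). The difference of 0.244 per 1000 was within what other divisions of the strains gave (exact two-sided permutation test over 56 divisions, p = 0.214, with 0.0179 the smallest possible). Without the AJ male, whose share was 1.93, the difference was 0.314 (exact p = 0.0357). With equal numbers of peaks from each list its direction turned, at -0.135 (exact p = 0.643).

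Males had a larger share of Olfr regions than females in every strain. The pairs of female and male shares per 1000 called regions were 0.888 and 1.11 in 129, 1.22 and 1.93 in AJ, 1.14 and 1.43 in B6, and 1.17 and 1.29 in CAST. They were 1.03 and 1.09 in NOD, 1.06 and 1.25 in NZO, 1.23 and 2.02 in PWK, and 1.42 and 1.63 in WSB. The gap was widest in PWK and AJ and narrowest in NOD. The mean difference, female minus male, was -0.322 ± 0.272 (SD, n = 8 strains, exact sign-flip p = 0.00781).

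The difference was smaller with the rarely called regions left out. Of the 42 regions called in 12 or more samples, females called 39.0 ± 2.93 and males 38.8 ± 2.82 (SD, n = 8, exact sign-flip p = 0.906), which leaves little room for a difference since nearly all are called in each sample. Of the regions called in 1 sample, females held 30.1 ± 19.1 and males 56.0 ± 43.6, more in males in 6 of 8 strains (exact p = 0.0781). Counting only regions called in 2 or more samples, the difference was -0.138 ± 0.138 per 1000 and males were higher in 7 of 8 strains (exact p = 0.0156). Among the peaks of each list above its median deposited significance, it was -0.0191 ± 0.104 with males higher in 4 of 8 strains (exact p = 0.617). Females had 108220 ± 27698 called regions and males 107706 ± 25143 (SD, n = 8 strains, exact p = 0.938), and the share of regions called in no other sample was 6.43% ± 3.27 and 10.1% ± 10.3 (exact p = 0.469). Vmn1r and Vmn2r regions, 1.04 ± 0.411 and 1.10 ± 0.344 per 1000, were higher in males in 5 of 8 strains (exact p = 0.648). The part of these library values in the difference was not tested.

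**Figure D5:**
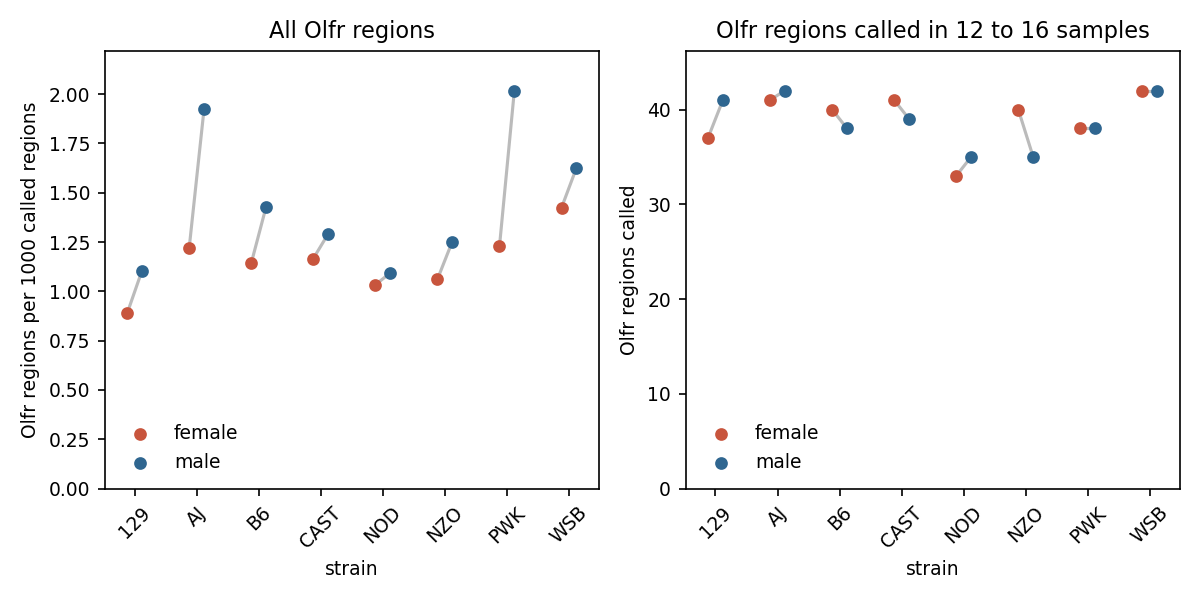
Left, Olfr regions per 1000 called regions in the female and male of each strain. Right, the number called among the 42 Olfr regions of 12 to 16 samples. Males lie above females in all 8 strains on the left, and in 3 of 8 strains on the right.

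Regions named for sex were weak. Called in males only, Olfr458 (chr6:42462600-42463199) had a peak in the 129, B6, NOD and WSB males, at 0.290, 0.169, 0.146 and 0.136, and Olfr1008 and Olfr994 were each called in 3 males. Called in females only, a second region of Olfr243 was called in 3 females at up to 0.250, and those of Olfr545 and of Olfr180 with Olfr181 were called in 2 females each. These regions were chosen for this pattern and carry no test.

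The 2 samples of a strain shared more Olfr regions than samples of different strains did. The Jaccard index, the share of regions called in both among those called in either, was 0.325 ± 0.0768 (SD, n = 8 strains) for the pairs of a strain and 0.236 ± 0.0546 for 56 female and male pairs of different strains. It ran from 0.205 in PWK to 0.406 in CAST. Over all autosomal regions the values were 0.624 ± 0.0879 and 0.506 ± 0.0836, so pairs of a strain were higher there too. An exact permutation test over all 40320 ways to pair the females with the males gave, for the Olfr regions, a one-sided p of 4.96e-05 (n = 8 pairs).

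Of the 994 regions 723 (72.7%) were called in 1 strain only, beside 50.8% of all regions. PWK held 190 of these, WSB 142, NZO 110, CAST 90, AJ 74, B6 68, 129 26 and NOD 23. Wild-derived strains thus held 58.4% of them (exact one-sided permutation test over 56 choices of 3 strains, p = 0.0357), but they also held 60.2% of the single-strain regions over the whole genome. With lists of equal numbers of peaks the share fell to 17.5% (exact p = 0.786), and without the PWK male it was 46.7% (exact p = 0.179). Only 34 (3.42%) were called in both samples of 1 strain and nowhere else, beside 4.40% of all regions, and 14 of them were from WSB, 7 from CAST and 7 from PWK. The 3 with the highest signal were Olfr650-ps1 in NZO (0.358 and 0.509), Olfr177 in AJ (0.292 and 0.473) and Olfr707 in NOD (0.326 and 0.366).

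Olfr genes chained at under 500 kb formed 66 groups, of which 24 held 10 or more genes. These 24 held 1277 of the 1399 genes (91.3%) and 936 of the regions (94.2%). The largest lay at chr2:85330779-90403897 with 287 genes and 239 regions in 156 of them, of which 172 were called once, 5 in 12 or more samples and none in all 16. The group at chr7:102476579-105369355, with Olfr78, Olfr544, Olfr243 and Olfr658, had 156 genes and 147 regions, of which 10 were called in 12 or more samples and 3 in all 16. The group at chr9:37708964-40190134, with Olfr148 and Olfr986, had 123 genes and 75 regions, of which 2 were called in all 16. Over all 994 regions, 69.3% were called in 1 sample, 4.23% in 12 or more and 2.11% in all 16. Over all autosomal regions these shares were 46.4%, 19.2% and 11.8%, and differences between groups were not tested. The gene with most regions was Olfr643, with 20, over an annotated body of 138606 bases. Olfr56 followed with 10 over 156499 bases, so both counts come with bodies far longer than the median of 5.50 kb.

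Olfr regions held more repeated sequence than other gene-body regions. At least 50% of the 31-base words were repeated in the genome in 164 of the 961 regions long enough to have one (17.1%). The share was 6.19% for every 40th region of other gene bodies (3667 with words) and 49.7% for Vmn1r and Vmn2r regions (782 with words). In 107 of the 164, at least 50% of the repeated words had a further copy in an Olfr gene body, which was most often the region's own gene in 7 of them, and 4 of the 164 were called in 12 or more samples. No region held a 31-base word of the mitochondrial genome. The median GC content of the central 200 bases was 43.0% for Olfr regions and 45.5% for the others.

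Motifs were searched as letters on both strands in the central 200 bases, as a description. The Ebf motif TCCCNNGGG, of factors that act at Olfr promoters in the nose, was in 10 Olfr regions (1.01%) beside 2.38% of other gene-body regions. The AP-1 motif TGANTCA was in 7.95% beside 13.6%. The homeodomain motif TAATTA was in 6.64% beside 6.03%, and the forkhead motif TGTTTAC in 5.03% beside 4.65%. Among the 42 regions of 12 to 16 samples, 3 held the AP-1 motif, 5 the forkhead motif, 2 the homeodomain motif and 0 the Ebf motif (7.14%, 11.9%, 4.76% and 0%). Of 843 other gene-body regions called as often, 9.96%, 5.93%, 6.88% and 3.08% did.

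Promoters of the signalling partners of the receptors were open in part. Of 19679 protein-coding genes outside the Olfr family, 60.1% had a peak within 3 kb of a start site in all 16 samples and 11.2% in none, and of 1128 protein-coding Olfr genes 1.86% and 38.4%. Of 15 genes of odorant signalling, 5 had a peak within 3 kb of a start site in all 16 samples: Gnal (the olfactory G protein), Adcy3 (the olfactory adenylyl cyclase), Cngb1 (a channel subunit), Ric8b (a chaperone of that G protein) and Arrb2 (an arrestin). Gng13 and the receptor transporter Rtp1 had none in any sample, and the channel subunit Cnga4 had one in 5 samples with a highest scaled signal of 27.7. Peaks near the start site of another gene were not left out here, and whether this peak belongs to Cnga4 was not tested. Of 17 regulators of Olfr choice or of heterochromatin, 10 had a peak in all 16 samples, among them the heterochromatin proteins Cbx3 (median 2.15) and Cbx5 (2.12), the methyltransferases Ehmt1, Ehmt2 and Setdb1, and Ebf2 and Ebf3. Lhx2 had one in 14, Ebf1 in 13 and Emx2 in 3 samples. Most of these genes serve many tissues.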

How the data were processed

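ATAC-seq peak lists of pancreatic islets from 8 mouse strains, 1 female and 1 male each, were used. Before deposition, reads were adapter-trimmed (cutadapt 2.0) by the authors and mapped in pairs to mm10, whatever the strain, by Bowtie2 2.3.4.1 with fragments of up to 800 bases. SAMtools and Picard 2.9.2 served to drop mitochondrial reads and duplicates. MOSAiCS then called peaks sample by sample (false discovery rate 0.05). A shift for the transposase is not given in the sources used here. The signal deposited for each peak, at its summit and as a mean, is not scaled to depth, and the −log10 p deposited beside it was used only to rank peaks. The strain lists deposited by the authors add a −log10 of the irreproducible discovery rate, and 0.05 was the limit here. The lists give no read totals, so no interval for counting error was computed, and read depth was not used here.

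Peaks that touched or overlapped were merged, and genes were taken from the GENCODE annotation of mm10. Female and male values were averaged within a strain, and strains were compared with exact sign-flip or permutation tests. These were two-sided, except the one-sided tests of the Jaccard index and of the single-strain share. Signal was compared as log2(summit signal + 1), centred on the median of each list, with limma 3.58.1 in R 4.3.3, with Benjamini-Hochberg adjustment over all regions. The sample labels do not say whether islets of 1 or several animals were pooled, and p-values measure the spread between these samples. The limma step was tested on simulated data. Named regions were those called in all 16 samples (the 12 with the highest mean), the next 8 by mean, the 3 strongest in 1 strain only, 3 in each sex only, those in genes known outside the nose, those past the limma threshold, the 3 widest, and the gene and 3 clusters with most regions. Further regions are named as chosen after their values were seen. The regions and lists were chosen with earlier results of these data known. Alternatives were the peaks of each list above its median significance, equal numbers of peaks, other definitions of the regions, other signal scales and leaving out each sample.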

Additional observations from a re-analysis of the deposited data

Results flagged for a closer look

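Samples far from the rest of their group were sought by Dixon's test in 82 groups of values, of which chance would mark about 1 in 20, and 3 were marked. The share of Olfr regions in the AJ male was 1.93 per 1000 called regions, and the other classical samples lay between 0.888 and 1.43. The scaled signal of the Olfr443-ps1 region was 3.80 in the NZO female, and the other classical samples lay between 1.35 and 2.49. The scaled signal of the Olfr90 region was 1.16 in the PWK male, and the other males lay between 0.307 and 0.707.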

How the results depend on the processing

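The lower coverage of Olfr bodies and start sites, and the lower signal and width of Olfr regions, kept their direction and side of the threshold under each alternative run. Their sizes moved. Among peaks above the median significance the log2 ratio of bases was -3.55, the signal difference -0.386 and the width difference -196 bases. With equal numbers of peaks these were -3.36, -0.383 and -160 bases. With only the peaks of each list above its median deposited significance, the female minus male share was -0.0191 per 1000 (exact p = 0.617). Wild-derived strains then held 68.8% of the single-strain regions (exact p = 0.0536). Only 114 Olfr regions remained, of which 12 were called in every sample and 39 in 1 sample, against 21 and 689 of 994 before. The shares over all regions were not computed for these shorter lists. With equal numbers of peaks the share difference between wild-derived and classical strains was -0.135 per 1000, and the female minus male share was -0.165 (exact p = 0.0703). The single-strain share was 17.5%, and 154 of 259 Olfr regions were called in 1 sample. The cause was not tested. The strain effect count of 4 (35.7% of all regions called) became 9 with regions of 12 or more samples (18.1%), 11 without centring (63.2%) and 2 with the mean signal (27.8%).

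Leaving out 1 sample at a time gave log2 ratios of -2.70 to -2.57 for bases and differences of -59.6 to -59.1 points for start sites. Class differences ran from 0.109 to 0.374 per 1000 (0.314, exact p = 0.0357, without the AJ male) and sex differences from -0.360 to -0.255. The Jaccard index ran from 0.310 to 0.342, the single-strain share from 46.7% to 66.2% (no longer past the threshold without either CAST sample, the PWK male or either WSB sample), signal differences from -0.82 to -0.78 and width differences from -50.4 to -41.6 bases. From 21 to 23 regions were called in every sample and from 590 to 691 in 1 sample, and from 1 to 15 regions had a strain effect and 0 a class effect. The sexes were paired within strains in the sign-flip test of sex. Lists of different length and depth limit what a missing peak means.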
